A study of Mus musculus with 30 samples.

Results

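The sites described here are regions of accessible chromatin that differed between blebbistatin and DMSO in mouse tail tendon fibroblasts, as listed in the authors' deposited table. All 970 sites of that table were taken, of 16367 sites in the 5 site tables of the series, and no site was left out. The cells were primary fibroblasts from the tail tendon, wildtype in genotype, with strain, sex, age and number of animals not given in the labels. Both groups were kept in medium with 0.1% serum, and the compared groups were DMSO, the solvent, and blebbistatin at 10 µM, with 3 ATAC libraries each. Messenger RNA was measured in 3 further libraries of each of these groups. The series also holds Y27632 at 30 µM against the same DMSO libraries, and a second experiment with doxycycline at 10 ng/mL and blebbistatin. All groups share the low serum, and the labels do not say what doxycycline induced, how long the treatments lasted, or whether replicates were separate animals or cultures.

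ATAC sequencing marks DNA that is open enough for a transposase to cut, which includes active promoters and the enhancers that act on genes from a distance. Blebbistatin blocks the motor of non-muscle myosin II, which pulls on actin filaments and gives fibroblasts their contractile tension. YAP and TAZ are co-activators that enter the nucleus in tense, spread cells and bind DNA through TEAD factors, while the Hippo kinases and angiomotins keep them out. Tendon fibroblasts make and remodel a collagen matrix under load, and their genes for matrix, actin and growth factor signalling are known to respond to tension.

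The authors' deposited table marks matches to 1 motif, which the motif program's header names as most like TEAD. It was found in 603 of the 970 sites (62.2%), in 63.3% of the lower sites and in 0 of the 17 higher sites. Because such a motif is derived from a site list of this kind, and which sites were searched is not given, these shares are a description. The 837 matches comprised 108 different words of 10 bases. Their central 6 bases were GGAATG in 536 matches (64.0%), GGAATT in 226 and AGAATG in 75. The matches at the sites that the results below turn on are shown as examples, written in the motif's orientation with the central 6 bases in capitals.
Most frequent word, 26 matches: aGGAATGtgg
Second most frequent word, 24 matches: aGGAATGcag
Snx19 site with the lowest FDR: tGGAATGctg
Col5a2 site: aGGAATGtga
Wwc2 site: tGGAATGcta
Thbs1 site at its transcript end: aGGAATGcac
Ccn1 site: tGGAATGcag
Ccn2 site: aGGAATTtgg
Amotl2 site: tGGAATTctt
Gm5627 site of 1500 bp: aGGAATGtcc
Vgll3 site: aGGAATGcaa
Timp2 site: tGGAATGtcc
Acta2 site: tGGAATTtgg
The words shown share GGAAT, which the matches with AGAATG lack, and differ in the bases around it. No one word made up more than 3.11% of the matches. Sites without a match are not shown. Of the 10 listed sites grouped around Amotl2, 4 had a match, and the other Thbs1 site had none.

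Nearly all listed sites had less signal with blebbistatin. Of the 970 sites, 953 were lower and 17 higher in the authors' deposited table, which are 1.52% and 0.027% of the about 62853 sites that the authors tested, a number worked out from rank, p-value and FDR. Every site was listed because it passed an FDR of 0.05 in this contrast, so these counts describe the list and no site was tested again. Only group means were used, and the ATAC depth is unknown. In the authors' deposited table the lower sites had a median log2 signal of 6.41 with DMSO and 4.81 with blebbistatin, and a median log2 fold of -1.59, from -2.97 to -1.24. The 17 higher sites had medians of 5.05 with DMSO and 6.58 with blebbistatin and a median log2 fold of 1.52, from 1.33 to 1.76. In bulk libraries, fewer cells with an open site and less openness per cell cannot be told apart, and for RNA the same holds for fewer cells of a type and less RNA per cell.

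**Figure D1:**
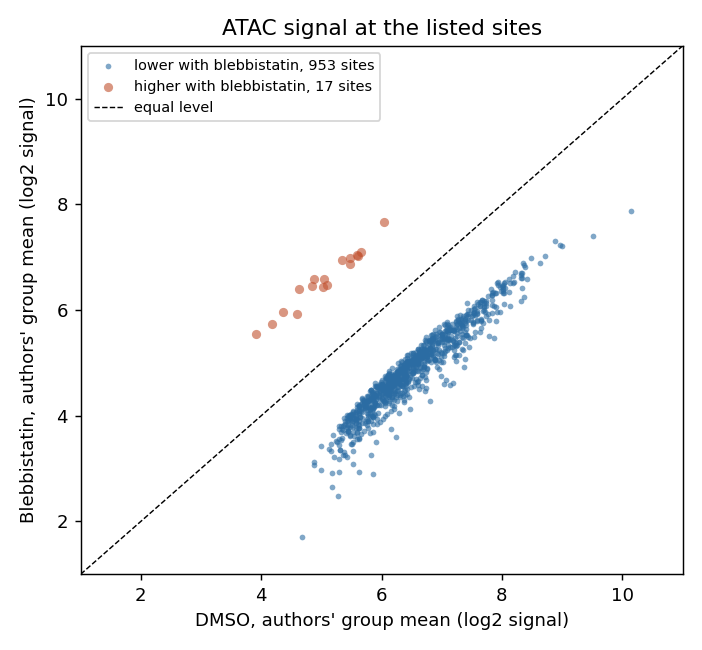
Each point is 1 of the 970 listed sites, with the authors' mean log2 signal over 3 DMSO libraries on the x axis and over 3 blebbistatin libraries on the y axis. The 953 lower sites form a band below the dashed line of equal level, and the 17 higher sites lie above it, with no site near the line because the list holds none.

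The sites lay far from gene starts. The authors' deposited table annotates 528 sites as intergenic (54.4%), 397 as intron (40.9%), 21 as transcript end, 11 as 3′ UTR, 8 as promoter, 4 as exon and 1 as non-coding. Only 15 sites lay within 1 kb of a transcription start, and all 15 were lower. A further 152 lay at 1 to 10 kb. The largest group, 372 sites, lay 10 to 50 kb away, 176 lay at 50 to 100 kb, 233 at 100 to 500 kb and 22 beyond 500 kb. The median distance was 40822 bp for lower and 53326 bp for higher sites, and the higher sites were all intergenic or intronic. Sites upstream of the annotated start numbered 463 and those downstream 507. The log2 fold hardly varied with distance, since the medians of the lower sites were -1.56 within 1 kb, -1.58 at 1 to 10 kb, -1.61 at 50 to 100 kb and -1.60 at 100 to 500 kb. Every autosome and the X chromosome held sites, from 14 on X and 21 on chromosome 19 to 88 on chromosome 1.

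**Figure D2:**
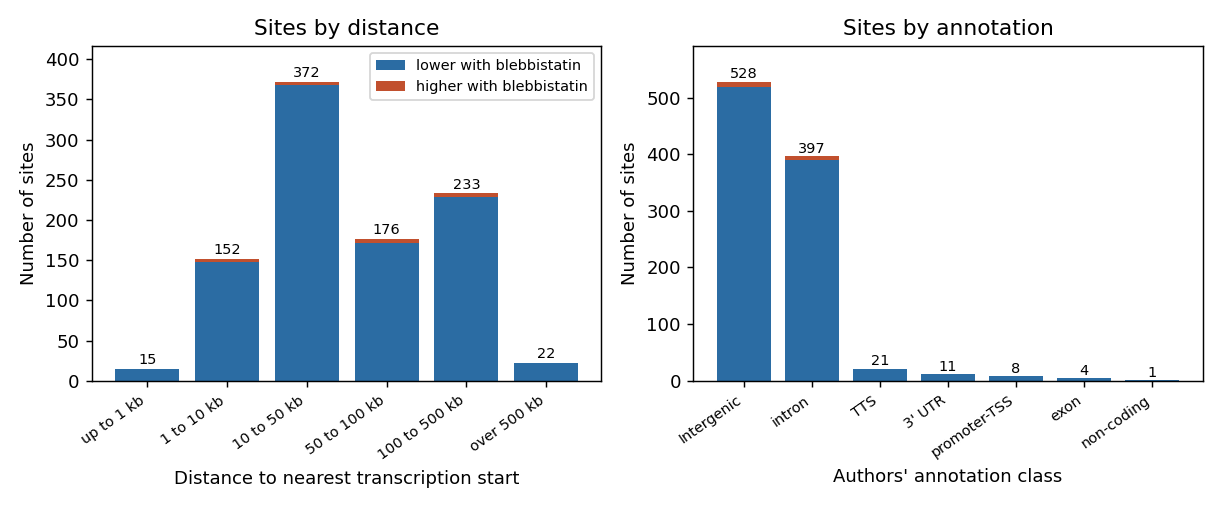
Bars count the listed sites by distance to the nearest transcription start (left) and by annotation class (right), with lower sites in blue, higher sites in red and the total above each bar. The 10 to 50 kb group is the tallest at 372, and intergenic and intron sites far outnumber the 8 promoter sites.

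Most sites were short, with a median width of 256 bp and a range of 80 to 1500 bp. The median GC content was 44.5% for lower and 48.1% for higher sites. When the lower sites were split into 4 groups of about equal size by GC content, the median log2 fold was -1.66 in the group with the least GC and -1.61, -1.57 and -1.54 in the others, and the median distance to a gene start was 59197 bp in the first group and 28582.5 bp in the last. A split by mean signal gave median log2 folds of -1.63, -1.58, -1.54 and -1.62 from the weakest to the strongest group. The share of sites with the motif was 52.0% in the weakest and 76.3% in the strongest group, and the median widths were 164.5 and 420 bp. The part that width plays in that share was not tested. The sites just inside the threshold, with FDR values of 0.0498 to 0.05 in the authors' deposited table, were those of Got1 at -1.5, Map2k5 at -1.52, Gm15915 at -1.29, Zfp277 at -1.53 and 4930474G06Rik at -1.5. Sites just outside it were not analysed here.

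RNA offered a measurement that the list did not use. The RNA libraries had 23375386 to 31326871 reads in genes. Of the fibroblast markers 10 of 10 were tested, and limma called 4 lower and 3 higher. Of the tendon markers 8 of 8 were tested, and limma called 2 lower and 4 higher. Tendon markers summed to 66504 to 71052 normalised counts in DMSO and 59628 to 63305 in blebbistatin libraries, without overlap. Epithelial markers summed to 9.19 to 11.9 and 8.31 to 18.4 normalised counts and muscle markers to 42.5 to 45.2 and 19.3 to 43.6, with Myod1 and Ckm at 0 in all 6 libraries. Immune markers moved with the treatment, with 5 of 7 tested and all 5 higher, and sums of 1634 to 1841 with DMSO and 2314 to 2683 with blebbistatin, while the T cell marker Cd3e was at 0. Over all genes tested, limma called 26.1% higher and 26.9% lower. Endothelial markers summed to 3166 to 3230 and 2006 to 2251, almost all of it Tek, with Cldn5 at 0, and glial and nerve markers to 281 to 313 and 390.5 to 412, with 2 of 4 tested called higher and 1 lower. Of the fibroblast and endothelial markers, Pdgfrb and Kdr had 1 lower site each, no marker of the other types had a listed site, and the part of these cells in the results below was not tested.

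RNA of the genes with sites was more often called lower than higher. The authors annotate the sites to 788 genes, of which 781 were found in the RNA table and 528 had a mean of at least 10 normalised counts and were tested. Of these, limma called 284 lower (53.8%) and 100 higher (18.9%) at an adjusted p under 0.05. Over all 14882 genes tested, 26.9% were called lower, 26.1% higher and 53.0% in either direction. The median log2 change was -0.22 for the genes with sites and 0.00 over all genes tested. The 3 blebbistatin libraries lay wholly below the 3 DMSO libraries for 294 of the 528 genes and wholly above for 108, against 30.2% and 30.0% of all genes tested. Decreases of at least 1 on the log2 scale were called for 76 genes and increases of that size for 19, against 2.94% and 3.64% of all genes tested. Since replicates are known only by number, these p-values measure the spread between libraries, which may be technical.

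The share of genes called lower was larger in the groups with more sites, a difference that was not tested. In 48 places neighbouring sites lay within 500 bp, so the number of sites of a gene may exceed its number of separate open regions. Among genes with lower sites and no higher site, limma called 217 of 425 with 1 site lower (51.1%) and 84 higher, 51 of 76 with 2 sites lower (67.1%) and 9 higher, and 16 of 18 with 3 or more sites lower (88.9%) and 0 higher. By the nearest site, 60.0% were lower within 10 kb, 57.0% at 10 to 50 kb, 54.4% at 50 to 100 kb and 46.6% beyond 100 kb. By the most negative site, 67.3% were lower at a log2 fold of -2 or below and 51.9% above -1.5, with 55.8% and 53.2% in the groups between. These shares fall from the first group to the last in both orders, and the differences between the groups were not tested. Genes with and without the motif in a lower site were lower in 56.5% and 50.9% of cases. Of the 7 tested genes with a higher site and no lower site, limma called all 7 higher, and of the 2 tested genes with sites of both directions, Cdkal1 and Fat3, neither was called.

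**Figure D3:**
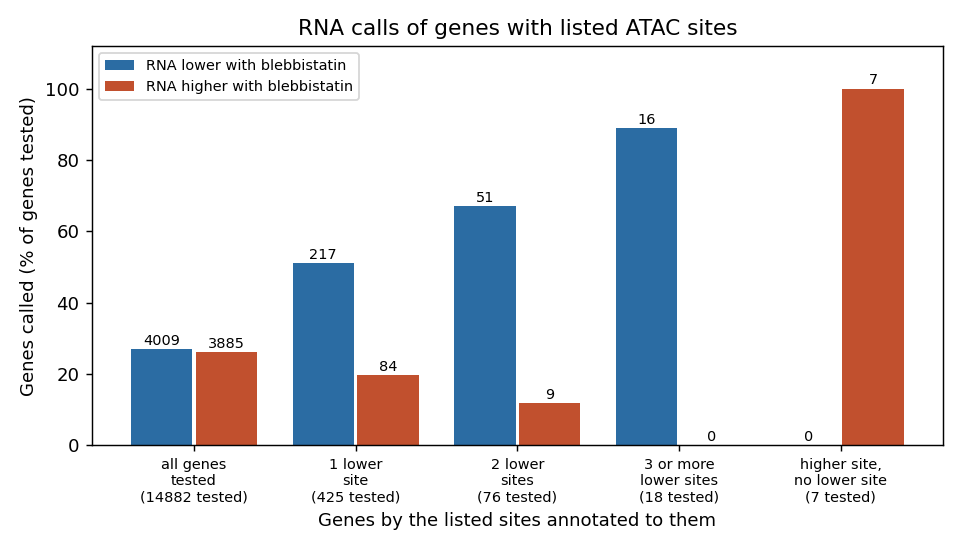
Bars give the percentage of tested genes that limma called lower (blue) or higher (red) in RNA with blebbistatin, with the number of genes above each bar, for all genes and for genes grouped by their listed sites. The blue bar is higher with more lower sites, from 51.1% to 88.9%, against 26.9% over all genes.

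Known targets of YAP and TAZ held lower sites. Of the 25 genes of the list, 9 had listed sites, 13 sites in all, and all 13 were lower, as were 98.2% of all listed sites. RNA of 8 of these 9 genes fell, and none rose. Of the 25, all were tested and limma called 19 lower and 3 higher, with a median log2 change of -0.74. This list and those below were chosen with earlier results of these data known, so the counts are not independent evidence of a direction. All list counts are to be read against the 26.9% of all genes tested that were called lower and the 26.1% called higher. The numbers of genes with sites are to be read against the 3.55% of all genes tested that had one.

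Thbs1, which encodes the secreted matrix protein thrombospondin 1, had sites 16.2 and 17.4 kb downstream of its start, at chr2:118127640-118128603 and chr2:118129167-118129290 (mm10). In the authors' deposited table these went from 9.51 to 7.41 and from 7.19 to 4.62 log2 signal, folds of -2.10 and -2.57. Its RNA was 246916, 265062 and 251542 normalised counts in the DMSO libraries and 46605, 53697 and 54287 in the blebbistatin libraries, with no overlap and a log2 change of -2.31 (SE 0.054, limma adjusted p 1.15e-11). Ccn1 and Ccn2, listed in the RNA table as Cyr61 and Ctgf, encode secreted proteins of the CCN family. The Ccn1 sites, at chr3:145702797-145703054 and chr3:145703388-145703726, lie about 53 kb upstream with log2 folds of -1.61 and -1.56 in the authors' deposited table, and the Ccn2 sites, in an intron of another transcript 118981 and 119211 bp upstream, had folds of -1.66 and -1.68. Cyr61 RNA was 9898, 10690.5 and 10942 normalised counts with DMSO and 2346, 2666 and 2818 with blebbistatin, and Ctgf RNA 3137, 3399.9 and 3823 and 934, 1238 and 1252. The log2 changes were -2.01 (SE 0.059, limma adjusted p 7.30e-11) and -1.60 (SE 0.100, limma adjusted p 4.52e-08), and in both genes every blebbistatin library lay below every DMSO library.

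Other members of the list followed the same direction, apart from 1. Tead1, a TEAD factor, had an intronic site at a log2 fold of -1.54 in the authors' deposited table, and its RNA went from 9084, 8983 and 7952 to 4158, 4003 and 4065 normalised counts (log2 change -1.09, SE 0.046, limma adjusted p 1.65e-09). Crim1, a membrane protein that binds BMPs, had a site 448 kb upstream, at -1.89 in the authors' deposited table, and its RNA changed by -0.85. Rbms3, an RNA-binding protein, had an intronic site at -1.94 in the authors' deposited table and an RNA change of -1.05. Asap1, a regulator of Arf GTPases, had an intronic site at -1.83 in the authors' deposited table, but its RNA was 5722, 5371 and 5308 normalised counts with DMSO and 5662, 5392 and 5560.4 with blebbistatin. The groups overlap, and limma did not call a change (log2 change 0.02, adjusted p 0.691).

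A pair of promoters, one from the YAP/TAZ list and one of a muscle gene, carried sites, and their sequences show what the windows hold. Ankrd1, a YAP/TAZ target that encodes an ankyrin repeat protein of nucleus and sarcomere, had a site at chr19:36119726-36120203 that covers its start, with a log2 signal of 7.05 with DMSO and 5.61 with blebbistatin and a fold of -1.44 in the authors' deposited table. Cav3, which encodes the muscle caveolin, had a site at chr6:112459375-112459601 with 6.43 and 5.15 and a fold of -1.28 in the authors' deposited table. Each stretch is from RefSeq (GRCm38.p6), 5′ to 3′ on the gene's strand, with GGAATG or its complement CATTCC in capitals: 250 bases before the Ankrd1 start (chr19:36119845-36120094, minus strand), 30 bases just after the Cav3 start (chr6:112459511-112459540, plus strand), and the parts of sites that fall in the promoter windows of the non-coding Gm42294 (chr4:63771482-63771592, plus strand) and Gm13269 (chr2:14764487-14764582, minus strand).
Ankrd1: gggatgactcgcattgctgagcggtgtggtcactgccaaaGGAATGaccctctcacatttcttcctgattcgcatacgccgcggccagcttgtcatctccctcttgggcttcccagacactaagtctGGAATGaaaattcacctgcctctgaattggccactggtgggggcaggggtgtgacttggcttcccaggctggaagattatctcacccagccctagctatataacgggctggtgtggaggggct
Cav3: ggtggctggcagGGAATGccaggtctcctc
Gm42294: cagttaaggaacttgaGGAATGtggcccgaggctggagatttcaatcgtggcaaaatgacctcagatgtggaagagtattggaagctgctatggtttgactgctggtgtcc
Gm13269: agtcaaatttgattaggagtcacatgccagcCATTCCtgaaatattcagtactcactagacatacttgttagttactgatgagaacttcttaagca
The Ankrd1 stretch has 2 matches, although the authors' motif column marks none in that site, and Gm42294 holds the commonest word of the list. Listed sites touched 9 RefSeq promoter windows through 8 sites, and the 4 windows with GGAATG are those printed from, while the other 5 hold none. Overlapping windows of the non-coding Gm44867 are counted separately among the other 5. Not every listed site was compared with the windows, and the windows do not cover every gene start. The Sprr2j-ps site, 17 bp from its annotated start, touched none. Counts among the 9 are therefore partial and not to be set against shares over all windows. On either strand, GGAATG occurs in 14.7% of the 32851 RefSeq promoter windows of 300 bases, and a match describes letters, not binding. It is also the commonest core of the authors' motif. TGANTCA, the AP-1 motif, occurs on either strand in 7.81% of these windows and in 0 of the 9.

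RNA of both genes with a printed promoter and a role in muscle fell. Ankrd1 RNA was 214, 216 and 240.1 normalised counts with DMSO and 65.4, 90.4 and 108 with blebbistatin (log2 change -1.36, SE 0.159, limma adjusted p 1.42e-05). Cav3 RNA was low, 20.9, 21.0 and 21.8 normalised counts against 5.19, 6.58 and 3.68 (log2 change -1.88, SE 0.326, limma adjusted p 3.81e-04), a change that the added 1 understates at this level. The groups do not overlap in either gene. Of the other 6 promoter sites, all lower, those of Nrf1 (log2 fold -1.80), Arhgap24 (-1.60) and Fam107b (-1.45 in the authors' deposited table) belong to genes whose RNA also fell, by 0.23, 0.71 and 0.58 on the log2 scale. Nrf1 is a regulator of nuclear genes for mitochondria and Arhgap24 an inhibitor of small GTPases. The genes at the others, Gm5144, Gm15997 and Sprr2j-ps, had at most 4.60 normalised counts in any library and were not tested. The Gm5144 site also lies 1052 bp from the start of the coding gene Npr3, whose RNA fell and is given below.

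The machinery of the same pathway also held lower sites. Of 19 TEAD, VGLL, YAP/TAZ and Hippo genes, 7 had sites, 10 in all and all lower, and the RNA of 5 of these 7 fell and of 1 rose. Over the whole list limma called 9 of 19 lower and 5 higher, against 26.9% and 26.1% of all genes tested, with a median log2 change of -0.07. Vgll3, a cofactor that binds TEAD, had 4 sites between 49.0 kb upstream and 254 kb downstream, with log2 folds from -1.87 to -1.69 in the authors' deposited table. Its RNA was 16119.6, 16875 and 16221 normalised counts with DMSO and 5880.3, 5983 and 5974 with blebbistatin, far apart and without overlap (log2 change -1.46, SE 0.030, limma adjusted p 4.41e-12). Wwc2, a scaffold that activates Hippo kinases, had 1 of the 5 sites with the lowest FDR, at chr8:48002912-48003164 with a log2 fold of -2.40 in the authors' deposited table, and RNA of 2841, 2958 and 2880.0 against 1631, 1682 and 1783 normalised counts (log2 change -0.77, limma adjusted p 1.14e-08). Its relative Wwc1 had a site at -1.51 in the authors' deposited table but no called RNA change (log2 change -0.02, limma adjusted p 0.963).

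Amot, the angiomotin that holds YAP in the cytoplasm, had an intronic site at -2.22 in the authors' deposited table and an RNA change of -1.15. Tead3, another TEAD factor, had a site in an intron at -1.67 in the authors' deposited table, and its RNA went from 1757, 1796 and 1785 to 780.1, 835 and 769.9 normalised counts (log2 change -1.16, limma adjusted p 6.97e-10). Vgll4, which competes with YAP for TEAD factors, went the other way in RNA. Its intronic site was lower, 7.23 against 5.78 log2 signal and a fold of -1.44 in the authors' deposited table, while its RNA rose from 935, 924 and 928 to 1449, 1450.3 and 1545 normalised counts (log2 change 0.67, SE 0.043, limma adjusted p 6.56e-08).

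**Figure D4:**
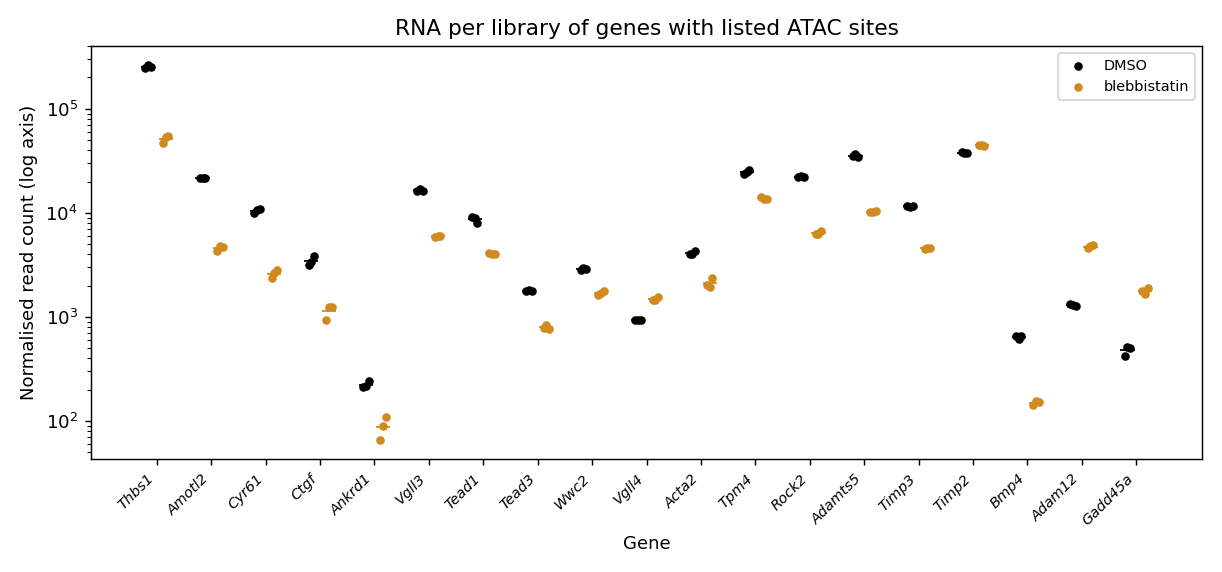
Points are normalised read counts of single RNA libraries on a log axis, 3 per group, and short lines are group means, for 19 genes with listed sites. Blebbistatin libraries (orange) lie below DMSO libraries (black) for all shown genes except Vgll4, Timp2, Adam12 and Gadd45a, of which only Adam12 and Gadd45a have higher sites.

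The listed sites of actin and myosin genes were all lower. Of 23 actin and SRF targets, 3 had a site each, where 3.55% of all genes tested had one, and the RNA of all 3 fell, as did 19 of 22 tested list members, with 1 higher and a median log2 change of -0.68. Acta2, the smooth muscle actin of contractile fibroblasts, had a site 10497 bp upstream that went from 7.70 to 6.08 log2 signal in the authors' deposited table, and RNA of 4048, 4009.9 and 4322 against 2043, 1935 and 2349 normalised counts (log2 change -0.97, limma adjusted p 4.86e-08). Cald1, which encodes the actin-binding protein caldesmon, had a site 14.9 kb upstream at -2.11 in the authors' deposited table and an RNA change of -0.65. Tpm4, a tropomyosin that lies along actin filaments, had one in its last intron at -1.96 in the authors' deposited table and an RNA change of -0.84. Rock2, a kinase that activates myosin II, had a site 29.8 kb upstream at -1.39 in the authors' deposited table and RNA of 21862, 22721 and 21906 against 6252, 6267 and 6648 normalised counts, without overlap (log2 change -1.79). Myl12a, a regulatory light chain of myosin II, had an intronic site at -1.64 in the authors' deposited table and an RNA change of -0.63. Acta2 and Myl12a have close copies, and how reads shared between genes were counted is not given in the sources used here.

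Of the 27 genes of the focal adhesion list, those with sites were Tns1 and Tns3, which encode tensins that tie integrins to actin. They had 3 sites, all lower. The Tns1 site had a log2 fold of -1.66 and the Tns3 sites had -1.5 and -1.42 in the authors' deposited table, and their RNA fell by 0.30 and 0.76 on the log2 scale. Over that list limma called 17 of 27 lower and 5 higher.

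The 3 listed sites of matrix structure genes were all lower. Of 35 matrix structure genes, Col5a2, Fbn1 and Fbn2 had 1 lower site each and the RNA of all 3 fell. Over the list limma called 17 lower and 10 higher, against 26.9% and 26.1% of all genes tested. Col5a2, a chain of the collagen V that nucleates tendon fibrils, had the site with the second lowest FDR, chr1:45580408-45580836, 77.3 kb upstream. It went from 7.14 to 4.58 log2 signal in the authors' deposited table, a fold of -2.56 with an FDR of 1.55e-04. Its RNA was 248410.0, 254041 and 243089 normalised counts with DMSO and 177208, 183392 and 172682 with blebbistatin, a log2 change of -0.48 (SE 0.036, limma adjusted p 2.78e-07). The groups do not overlap, and the RNA difference was smaller than at the site on the log2 scale. The elastic fibre genes Fbn1 and Fbn2 had intronic sites at -1.30 and -1.76 in the authors' deposited table and RNA changes of -0.39 and -0.84. The call of Fbn2 (limma adjusted p 0.0167) did not hold with DESeq2 (adjusted p 0.105), nor when DMSO replicate 2 was left out, which gave -0.75 with a limma adjusted p of 0.0605, nor without replicate 3 of that group, which gave -0.78 with 0.0506.

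Matrix degradation genes were the group with the most listed sites after the YAP/TAZ targets. Of 31 genes 7 had sites, 11 lower and 1 higher, and the RNA of 5 of the 7 fell and of 2 rose, against 12 lower and 15 higher over the list of 31. The shares over all genes tested were 26.9% lower and 26.1% higher. Adamts5, an aggrecan-cutting protease, had 2 intergenic sites 279 and 343 kb upstream at -1.39 and -1.72 in the authors' deposited table and RNA of 34852, 36966 and 34422 against 10239, 10108 and 10397 normalised counts (log2 change -1.79, limma adjusted p 2.61e-12). Adamts9, another of these proteases, had a site at -1.71 in the authors' deposited table and an RNA change of -1.44.

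The tissue inhibitors of metalloproteinases with sites differed from each other. Timp3 had 3 lower sites, from -1.57 to -1.46 in the authors' deposited table, and its RNA fell from 11681, 11388 and 11685 to 4517, 4637 and 4607 normalised counts (log2 change -1.34). Timp2 had 2 lower sites 5751 and 5917 bp upstream, at -1.92 and -2.0 in the authors' deposited table, and its RNA rose from 38281, 37352 and 37689 to 44397, 44925 and 44218 normalised counts (log2 change 0.24, SE 0.028, limma adjusted p 1.76e-05). In both genes the groups do not overlap, and in Timp2 the RNA lay on the other side from the sites. Adamts6 had an intergenic and an intronic site at -1.69 and -1.65 in the authors' deposited table and an RNA change of -0.16 (limma adjusted p 0.0303). That call did not hold when DMSO replicate 2 (-0.14, limma adjusted p of 0.100) or DMSO replicate 3 (-0.17, 0.0529) was left out, nor when blebbistatin replicate 1 (-0.15, 0.0824) or blebbistatin replicate 2 (-0.15, 0.0719) was left out, nor with the replicate number as a block (adjusted p 0.0546) and with DESeq2 (adjusted p 0.151).

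Of the signalling genes, the TGF-beta and BMP list had 4 genes with 5 sites, all lower, and the RNA of all 4 fell, against 14 of 27 lower and 8 higher over the list. Bmp4, a growth factor of that family, had sites 46.1 and 85.1 kb upstream with log2 folds of -1.73 and -2.07 in the authors' deposited table, and RNA of 649, 608 and 650.2 against 142, 155 and 153 normalised counts (log2 change -2.07, SE 0.074, limma adjusted p 3.39e-10). Skil, a repressor of Smad factors, Ltbp1, which binds latent TGF-beta, and Smad3, a transcription factor of the pathway, had sites at -1.72, -1.5 and -1.28 in the authors' deposited table, and their RNA changed by -0.50, -0.24 and -0.21. Of the 25 growth factor signalling genes, 3 had a lower site, namely Igf1 at -1.55, Hgf at -1.49 and the receptor gene Pdgfrb at -1.86 in the authors' deposited table. RNA of Igf1 fell by 0.43 on the log2 scale. Hgf (log2 change 0.24, limma adjusted p 0.102) and Pdgfrb (0.02, 0.606) were not called. Of the 12 AP-1 genes 0 had a site, a number to be read against the 3.55% of all genes tested that had one. Limma tested 10 of them and called 2 lower and 4 higher, against 26.9% and 26.1% of all genes.

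The sites with the most negative folds and the lowest FDR were mostly at genes of other kinds. The site with the lowest FDR, at chr9:30207519-30207683, lies 219.7 kb upstream of Snx19, a sorting nexin of membrane trafficking, and went from 5.86 to 2.90 log2 signal in the authors' deposited table. RNA of Snx19 was 2259, 2203 and 2217 normalised counts with DMSO and 1670.3, 1623 and 1588 with blebbistatin, a log2 change of -0.45. The most negative fold, -2.97 in the authors' deposited table, was at a weak site of 84 bp near Ppp1r3b, a glycogen-targeting subunit of protein phosphatase 1, with 4.68 against 1.71 log2 signal. Its RNA changed by -0.54. The Snx19 site followed at -2.96 in the authors' deposited table. Next in order were sites of 93 bp near the gene of septin 7, whose name the file holds as a date, at -2.79, of 152 bp near Mtmr2, a phosphoinositide phosphatase, at -2.70, and a site near Anxa10 at -2.65 in the authors' deposited table. RNA of septin 7 and Mtmr2 changed by -0.39 and -0.22, and Anxa10 was at 0 normalised counts in all 6 libraries. The site near the non-coding Lncbate1, among the 5 with the lowest FDR, had a fold of -2.26 in the authors' deposited table, and that gene had at most 0.99 normalised counts in any library. RNA changes at these genes were smaller than the folds of their sites, or the RNA was not measurable at this depth.

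Sites were also grouped along the genome. When sites at most 50 kb apart were chained, 739 stood alone, 101 groups had 2 or more sites, 15 had 3 or more and 6 had 4 or more. In 52 places neighbouring sites lay within 1 kb, so some may be parts of 1 open region, and their folds are not independent. The largest group had 10 sites over 141.7 kb around Amotl2, an angiomotin relative and YAP/TAZ target. They lie between -80.05 and 61.5 kb from the Amotl2 start, and all 10 were lower, with log2 folds from -2.26 to -1.41 in the authors' deposited table. The widest, of 1500 bp and 17.0 kb downstream of the Amotl2 start, had the highest DMSO level of the whole list, 10.14 log2 signal, and 7.88 with blebbistatin in the authors' deposited table. Although 6 of the 10 are annotated to the non-coding Gm5627 and 2 to Anapc13, the RNA that differed most was that of Amotl2.

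**Figure D5:**
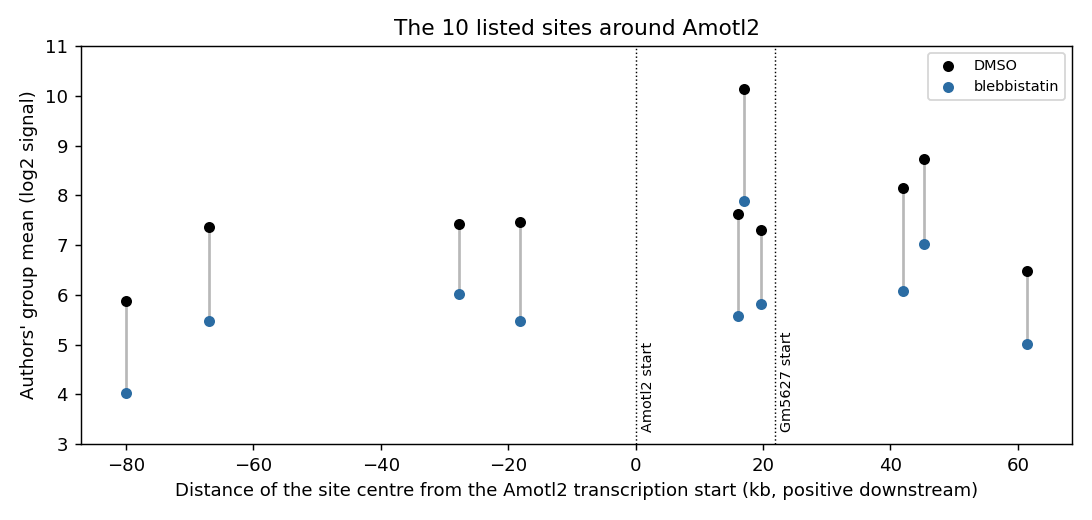
Points give the authors' mean log2 signal with DMSO (black) and blebbistatin (blue) at the 10 listed sites, placed by the distance of their centre from the Amotl2 transcription start, and grey lines join the groups of a site. All 10 sites are lower with blebbistatin, and the site 17.0 kb downstream has the highest level in both groups.

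Amotl2 RNA was 21419.7, 21635 and 21423 normalised counts in the DMSO libraries and 4321, 4822 and 4652 in the blebbistatin libraries (log2 change -2.23, SE 0.038, limma adjusted p 1.59e-12). The groups lie far apart, and the DMSO libraries lie close together. Of the other genes that start in or within 100 kb of the group, RNA of the receptor kinase gene Ryk changed by -0.65 and that of the centrosome gene Cep63 by -0.44, while Anapc13, of the anaphase-promoting complex, was not called (-0.11, limma adjusted p 0.136). Gm5627 had at most 7.94 normalised counts in any library and was not tested.

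The other groups of 4 or more sites had less RNA to compare. Col28a1, a collagen gene, had 6 lower sites in its introns 3 and 11, from -2.36 to -1.48 in the authors' deposited table, and RNA of 105, 122 and 86.2 against 53.0, 63.3 and 66.2 normalised counts (log2 change -0.76, SE 0.161, limma adjusted p 0.00162). Near Alkal1, which encodes a ligand of the receptor kinase ALK, 4 sites were lower by -1.98 to -1.83 in the authors' deposited table. Its RNA, under the older name Fam150a, was 7.94, 6.62 and 8.04 normalised counts with DMSO and 0, 0 and 0 with blebbistatin, below the filter, so no fold is given. Between the starts of Dusp14, a phosphatase gene, and Tada2a, a gene of a histone acetylation complex, 4 intronic sites were lower. The RNA changes were -1.59 for Dusp14 and -0.80 for the neighbouring lipid synthesis gene Acaca (limma adjusted p 1.26e-09 and 1.12e-07). RNA of Tada2a changed by -0.25 (limma adjusted p 0.016), and this call did not hold when DMSO replicate 2 was left out, at -0.23 with a limma adjusted p of 0.0582, or blebbistatin replicate 2, at -0.16 with 0.0539. A group of 4 lower sites is annotated to Gm8580 and Gm15915, with at most 3.29 normalised counts in any library, and nearby coding genes are Snrpf, not called (-0.28, limma adjusted p 0.374), and Ntn4, a netrin of basement membranes, which changed by -0.77. Ankfn1, with 4 intronic sites, and Gm20125, with 6 scattered ones, had too few reads to be tested.

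Of the genes with exactly 3 lower sites, most had clear RNA decreases. Npr3, the clearance receptor of natriuretic peptides, had RNA of 2175, 2237 and 2043 normalised counts with DMSO and 324, 421 and 324 with blebbistatin (log2 change -2.60, SE 0.088, limma adjusted p 2.21e-10). Cdc42ep3, an effector of the GTPase Cdc42, changed by -1.88, Ncald, a calcium sensor, by -1.74, Tslp, a cytokine, by -1.35, and Jag1, a Notch ligand, by -1.09. Smaller changes were called for the kinase gene Map4k3 (-0.93), the GTPase inhibitor gene Dlc1 (-0.72), Bcl10 (-0.52), Fez2 (-0.30) and Fam198b (-0.27), among others. Of the 18 tested genes with 3 or more lower sites, Cpxm2 (0.10, limma adjusted p 0.0917) and Gdap1 (0.21, 0.213) were not called, and without blebbistatin replicate 3 Cpxm2 was called higher (0.14, limma adjusted p 0.0349). These genes were named after their values were seen, by their number of sites.

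The 17 higher sites were annotated to 16 genes, none had an FDR under 0.01, and 300 lower sites did. The site with the highest fold was 54.1 kb upstream of Rtp1, at 1.76 in the authors' deposited table, and Rtp1 also had a lower site and no RNA in any library. Adam12, a membrane metalloproteinase, had an intronic site at chr7:134163689-134164151 that went from 5.47 to 6.99 log2 signal in the authors' deposited table. Its RNA rose from 1330.5, 1309 and 1279.7 to 4567, 4794 and 4862 normalised counts (log2 change 1.86, SE 0.037, limma adjusted p 3.85e-12), without overlap. Gadd45a, a gene of growth arrest and DNA repair, had a site 72.5 kb upstream at 1.60 in the authors' deposited table, and RNA of 421, 519.6 and 497 normalised counts with DMSO and 1784, 1655 and 1884 with blebbistatin (log2 change 1.89, SE 0.075, limma adjusted p 8.98e-10). The non-coding AI427809 had a site at 1.42 in the authors' deposited table and an RNA change of 1.75. Smaller RNA increases were called for Hmgn3, a nucleosome-binding protein (0.54), Lnx1, a ubiquitin ligase (0.47), Prickle2, a planar polarity protein (0.46), and Tbc1d1, a regulator of Rab GTPases (0.32). Tyms-ps, with 2 higher sites, and Sucnr1, 1700060C16Rik, 5730403I07Rik, 4930431F12Rik and Dleu7 were at or near 0 normalised counts and were not tested.

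A lower site did not always go with lower RNA. Limma called 93 of the 519 tested genes with lower sites only as higher (17.9%), against 26.1% over all genes. Among the largest such increases, chosen after their values were seen, were those of Exph5, a Rab27 effector with few reads (5.96, 12.1 and 4.60 against 29.1, 28.8 and 23.0 normalised counts), Scml4, a Polycomb-like gene, and Tbc1d2b, a Rab regulator. Scml4 RNA went from 248, 215 and 216 to 699, 753 and 731 normalised counts (log2 change 1.68) and Tbc1d2b RNA from 4425, 4282 and 4177 to 10699, 10211 and 10112 (log2 change 1.27, limma adjusted p 4.46e-11). Antxr1, a receptor for collagen and anthrax toxin, rose from 8441, 8155 and 7824 to 17254, 18342 and 18471. The nearest listed site lay 26119 bp from Scml4, 50166 bp from Antxr1 and 262742 bp from Tbc1d2b.

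The second experiment compared blebbistatin with DMSO, both without doxycycline, in other libraries. Its table holds 1231 sites and keeps only log2 folds of 1 or more in size. Of the 970 sites, 347 (35.8%) overlapped a site of that table by at least 1 bp, which is 28.5% of that table. In each of the 352 overlapping pairs the direction was the same, lower in 351 and higher in 1. Since 98.2% of the 970 sites were lower and the split of the second table is not given here, the shared direction is a description. In the authors' deposited tables the pairs had a median log2 fold of -1.63 in the first experiment and -1.25 in the second, and 326 pairs (92.6%) were more negative in the first. The smallest fold in size was 1.24 in the authors' deposited table of the first experiment, while the second was cut at 1. These limits bear on which pairs could be compared, and their part in the difference was not tested. The only shared higher site was that of Adam12, at 1.51 and 1.08 in the authors' deposited tables. Shared lower sites had a median DMSO level of 6.75, a median width of 293 bp and the motif in 71.1%, and the other lower sites 6.28, 241 bp and 58.8%. These differences were not tested. The experiments share cell type and treatment but no library.

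Single sites show how the experiments compared. The wide Thbs1 site in the authors' deposited tables was at -2.10 and -1.60, the site at Amotl2 with the lower FDR at -2.01 and -1.66, and the Ccn1 sites at -1.61 and -1.56 against -1.36 and -1.20. The Col5a2 site was at -2.56 and -1.95 and the Asap1 site at -1.83 and -1.84 in the authors' deposited tables. The Snx19 site with the lowest FDR and the sites of Wwc2 and Ankrd1 overlapped no site listed in the second experiment. In the presence of doxycycline, 230 of the 970 sites (23.7%) overlapped a site lowered by blebbistatin, 3.56% of the 6346 in that table, among them the first Ccn1 site at -1.03 and the Acta2 site at -1.01 in the authors' deposited table. Sites found in both tables of the second experiment numbered 113, and 506 were in neither.

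Y27632 was compared with the same DMSO libraries, so its values stand beside those of blebbistatin only as a description. In the authors' deposited tables the folds with blebbistatin and Y27632 were -2.96 and -1.77 at the Snx19 site, -2.56 and -1.84 at Col5a2, -2.40 and -1.64 at Wwc2, and -2.57 and -1.64 at the narrow Thbs1 site. They lay closer at the intergenic Adamts6 site, -1.69 and -1.67, and at the Col28a1 site with the least negative fold, -1.48 and -1.53 in the authors' deposited tables. At higher sites they were 1.52 and 1.63 for Dleu7, 1.41 and 1.49 for Tbc1d1 and 1.76 and 1.5 for Rtp1 in the authors' deposited tables. Of the sites at YAP/TAZ targets and actin genes, some were in both tables. The folds were -1.61 and -1.37 at the first Ccn1 site and -1.63 and -1.29 at Acta2 in the authors' deposited tables. They were -1.96 and -1.21 at Tpm4 and -2.11 and -1.41 at Cald1 in the authors' deposited tables. The sites of Amot, Vgll3, Rock2 and Adam12 were not among the 207 sites of the Y27632 table.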

How the data were processed

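ATAC and RNA libraries of tail tendon fibroblasts were compared between blebbistatin and DMSO, with 3 libraries of each kind per group, grouped by their labels. The submitters' processing notes name Bowtie2, HISAT2, MACS2, DiffBind, HOMER, featureCounts, DESeq2, Picard, SAMtools and the mm10 build, with no version. Their roles, filters and parameters, and whether counting used strand, are not given in the sources used here.

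The deposited site table holds the authors' log2 group means of signal and log2 fold, their p-value and FDR, the peak's rank score, HOMER's annotation and distance, and GC content as a fraction, per the file headers. Library values of ATAC and sites with an FDR over 0.05 were not used here. The number of sites tested was estimated as the median, over the last sites of the list, of FDR times rank divided by the p-value. Site levels cover a whole site, so levels of sites of different width are not directly comparable. Where sites were grouped or ranked by level, this is a description only. Coordinates were written 1-based, in mm10. Sequences came from the authors' motif column and from RefSeq (GRCm38.p6).

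The deposited RNA table holds normalised counts, that is, counts the authors divided by a size factor, an expression signal per gene. Here limma 3.58.1 in R 4.3.3 was fitted to log2(normalised count + 1) of the 6 libraries for genes with a mean of at least 10, with Benjamini-Hochberg adjustment over all 14882 genes. Log2 changes are blebbistatin minus DMSO on that scale, which understates changes of low genes. Genes were joined to sites by the authors' annotation, 15 of them through an alias that this annotation gives. The code was tested on simulated data.

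The replicates of each group differed from each other beyond sampling noise. Same-numbered libraries did not deviate together (correlations of -0.0605, 0.0225 and 0.0127), so numbers were not taken as pairs. Alternatives were edgeR 4.0.16 and DESeq2 1.42.0 on recovered reads, other filters and pseudocounts, leaving out each library, and stricter site sets. Named were the 5 sites with the lowest FDR, the 5 most negative and 5 most positive folds, all promoter and higher sites, genes with 4 or more sites and genes of the lists that had sites. The members and lists were chosen with earlier results of these data known. Some genes of the lists are counted but not reported here by name.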

Additional observations from a re-analysis of the deposited data

How the results depend on the processing

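The counts of genes with sites called lower (284) and higher (100) in RNA stayed within 1.5 times under 14 alternatives, with ranges of 251 to 290 and 91 to 104. They were 284 and 101 with edgeR, 265 and 92 with DESeq2, 264 and 93 by the authors' deposited RNA table, 251 and 91 with a mean of at least 100, and 281 and 104 when sites were joined to the nearest coding start in RefSeq, an alternative chosen after seeing the data. That alternative had a start for 934 of the 970 sites and for none on chromosome 18. Sites of that chromosome were also not compared with the promoter windows. The coding starts used in that alternative did not include those of every gene elsewhere. The narrow Thbs1 site was joined to Gpr176, 244191 bp away, and the Tead1 site to Micalcl, 345448 bp away. Its counts are therefore only a partial check of the join. Leaving out each RNA library in turn gave 264 to 276 lower and 92 to 97 higher. With the replicate number as a block the counts were 280 lower and 96 higher, and the calls that this pairing changed among the named genes stand beside them. The counts were smaller with sites within 50 kb only (181 and 52), with sites of an FDR under 0.01 (105 and 25) and with log2 changes of at least 1 (76 and 19), because each of these keeps fewer genes. In the authors' deposited table there were 300 lower and 0 higher sites with an FDR under 0.01, and 136 of the 300 overlapped a site of the second experiment. That overlap was 304 when it had to cover 50% of both sites. For the sites no library could be left out, since only group means were used, so their spread between replicates and their depth are unknown. At low RNA counts, 253 of the 781 genes found could not be tested.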
